A study of Homo sapiens with 6 samples.

Results

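The 9 genes described here encode the lectins, folding sensors and cargo receptors that handle N-glycosylated proteins in the early secretory pathway: CALR, CANX, PDIA3, UGGT1, UGGT2, SELENOF, MLEC, LMAN1 and LMAN2. They were chosen by symbol, as proteins that act on a glycoprotein around or after its trimming by glucosidase II. All 9 were found among the 21503 genes of the count table, and all 9 passed the filter on low counts that left 19430 genes for testing. The comparison was between UMUC3 cells labelled control and UMUC3 cells labelled GANAB knock down, with 3 bulk RNA-seq libraries of each. UMUC3 is an established human bladder carcinoma cell line, and GANAB is the gene of the alpha subunit of glucosidase II, which holds the active site. Cells of both groups had grown for 14 days in the bladders of C57 nude mice, animals that lack mature T cells but keep other host cells. The labels do not give the knockdown reagent, the clonality of the cells or the number of mice, so p-values measure the spread between these libraries, which may be technical in part.

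Newly made glycoproteins in the endoplasmic reticulum (ER) carry a branched glycan tipped with glucose residues. Glucosidase II trims the inner glucose residues. A glycan with a single glucose left is bound by the lectin chaperones calnexin (CANX, in the membrane) and calreticulin (CALR, in the lumen), which bring the disulfide isomerase PDIA3 to the protein. Removal of the last glucose releases the protein, and the sensor UGGT1 puts a glucose back on a protein that is still misfolded, which returns it to the lectins. Folded glycoproteins leave the ER with help from mannose-binding cargo receptors such as LMAN1.

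Several ER chaperone genes, CALR among them, are known to carry an ER stress response element (ERSE) in the promoter. The element is a CCAAT box followed, after any 9 bases, by CCACG, and is used in the unfolded protein response. RefSeq promoter windows (250 bases before to 50 after each start, build GRCh38.p14) were searched on both strands. Of the 9 genes, 8 had a window in the table, and PDIA3 had none. The exact element was in the windows of 2 of these 8 genes, CALR and CANX, while 0.0916% of 27305 genes with a window had it. With 1 mismatch in the fixed letters allowed the counts were 3 of 8 and 1.89% of genes, and with 2 mismatches 7 of 8 and 21.2% of genes. The related elements ERSE-II (ATTGG, any base, CCACG) and UPRE (TGACGTGG) were in 0 of the 8, against 0.0696% and 0.927% of genes. The sites of CALR and LMAN1 are shown because these genes passed the test below, those of their relatives CANX and LMAN2 because they did not, next to the site of HSPA5, the main ER chaperone of the Hsp70 family, as a reference. Both LMAN1 sites with 2 mismatches are given. Capitals mark the fixed letters that match the element, and each site reads in the direction of the element. The strand named for a site is relative to its gene, plus being the strand of the gene. CALR and CANX lie on the plus strand of the genome. LMAN1, LMAN2 and HSPA5 lie on the minus strand, so their sites are on the opposite genome strand to the one named.
CALR, exact, chr19:12938384-12938402, minus strand: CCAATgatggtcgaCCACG
CANX, exact, chr5:179698778-179698796, plus strand: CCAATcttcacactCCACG
LMAN2, 1 mismatch, chr5:177351692-177351710, plus strand: CCAATagatgggacCCcCG
LMAN1, 2 mismatches, chr18:59359309-59359327, plus strand: CCAATcagcgagcgCCctG
LMAN1, 2 mismatches, chr18:59359497-59359515, minus strand: CCAAccttcgcttcCCgCG
HSPA5, exact, chr9:125241391-125241409, plus strand: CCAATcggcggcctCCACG

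The 219 bases upstream of the annotated CALR start, chr19:12938359-12938577 on the plus strand, hold the exact element and 4 CCAAT boxes counted on either strand. The CCAAT box alone was in 6 of the 8 genes and in 39.7% of all genes. The stretch is printed because CALR changed most of the 9 genes in the main test. Capitals mark the CCAAT boxes and the CCACG of the element, which appears in its reverse complement as CGTGG followed by ATTGG.
CALR upstream: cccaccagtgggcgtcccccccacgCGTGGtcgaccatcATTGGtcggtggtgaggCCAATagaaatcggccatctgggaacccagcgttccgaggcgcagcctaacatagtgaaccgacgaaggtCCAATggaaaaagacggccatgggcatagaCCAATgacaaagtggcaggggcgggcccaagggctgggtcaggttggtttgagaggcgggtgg
The exact element was present for both CALR and CANX, though not in the window of every CANX start. Of the pair only CALR passed the test described next, and the part of the element in this was not tested. A match of letters is a description of the sequence and not a measured binding site.

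Estimated counts per library ran from 11737837 to 36381218 in the controls and from 36619291 to 40039584 in the knockdown. Control libraries differed among themselves far more than knockdown libraries did, with a biological coefficient of variation (edgeR's measure of spread beyond counting noise) of 52.3% against 10.7%. In control 1, 29.2% of counts came from mitochondrial ribosomal RNA, against 0.928% to 1.1% in the other 2 controls and 2.11% to 2.43% in the knockdown. GANAB itself had 685, 825.1 and 660.9 CPM (counts scaled to a common library total, with TMM factors) in the controls and 231.5, 238.1 and 230.5 in the knockdown. That is 32.2% of control (log2 fold change -1.63, edgeR adjusted p = 0.00239), in the direction of the labels. The epithelial keratins KRT8 and KRT18 were present in every library (80.67 to 248.3 CPM). The urothelial markers UPK3A and KRT20 were listed at 0 in all 6, and CDH1 stayed at or under 0.5518 CPM. Of the 11 tested markers of the epithelial and urothelial list 2 rose, 0 fell and 9 did not pass. Among all genes tested 4.59% rose and 3.72% fell. UPK1A, a urothelial plaque protein, rose 7.89-fold from 0.1577 to 0.7408 CPM in the controls to 3.375 to 4.5 CPM in the knockdown (edgeR adjusted p = 0.0251), and FOXA1, a transcription factor of urothelium, rose 2.33-fold (adjusted p = 0.0281). GATA3 (0.4115 to 0.8937 and 2.184 to 3.03 CPM) and UPK2 (0 to 0.9197 and 2.308 to 3.362 CPM) did not pass. Their groups did not overlap, as was the case for 37.6% of all genes tested, 21.9% with the knockdown higher. Of the 11, 9 had a positive and 2 a negative log2 fold change. The negative ones were KRT7 (-1.115, edgeR adjusted p = 0.21) and PPARG (-1.116, 0.196), whose groups overlapped. The part of these markers in the results was not tested.

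Of the 9 genes, 2 fell with GANAB knockdown (CALR and LMAN1), 0 rose, and 7 did not pass edgeR's quasi-likelihood test at a Benjamini-Hochberg adjusted p of 0.05. Across all genes tested 8.31% passed, 4.59% higher and 3.72% lower, so 2 of 9 stands against that background. The median log2 fold change of the 9 was -0.35, next to 0.03 over all genes, and 6 of the 9 were negative. The values of control and knockdown did not overlap for 2 of the 9, CALR and LMAN1, both lower in the knockdown, against 37.6% of all genes (15.7% with the knockdown lower). The calls depended on which libraries entered. With any 1 knockdown library left out 0 of the 9 passed, with 2 of them at an unadjusted p under 0.05 each time. The calls over all genes then went from 1614 to 62, 115 and 88 (0.311%, 0.575% and 0.44% of genes tested). Counts at an unadjusted p under 0.05, here and below, have no share over all genes beside them. Without control 2 there were 5604 calls over all genes (27.7%), and 2 of the 9 passed. With DESeq2, 2 of the 9 passed against 17.5% of all genes, and with limma-trend on log2(TPM + 1) 0 of the 9 passed, with 1 at an unadjusted p under 0.05, against 5.31%. In bulk tissue, fewer cells of a type and less RNA per cell cannot be told apart.

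**Figure D1:**
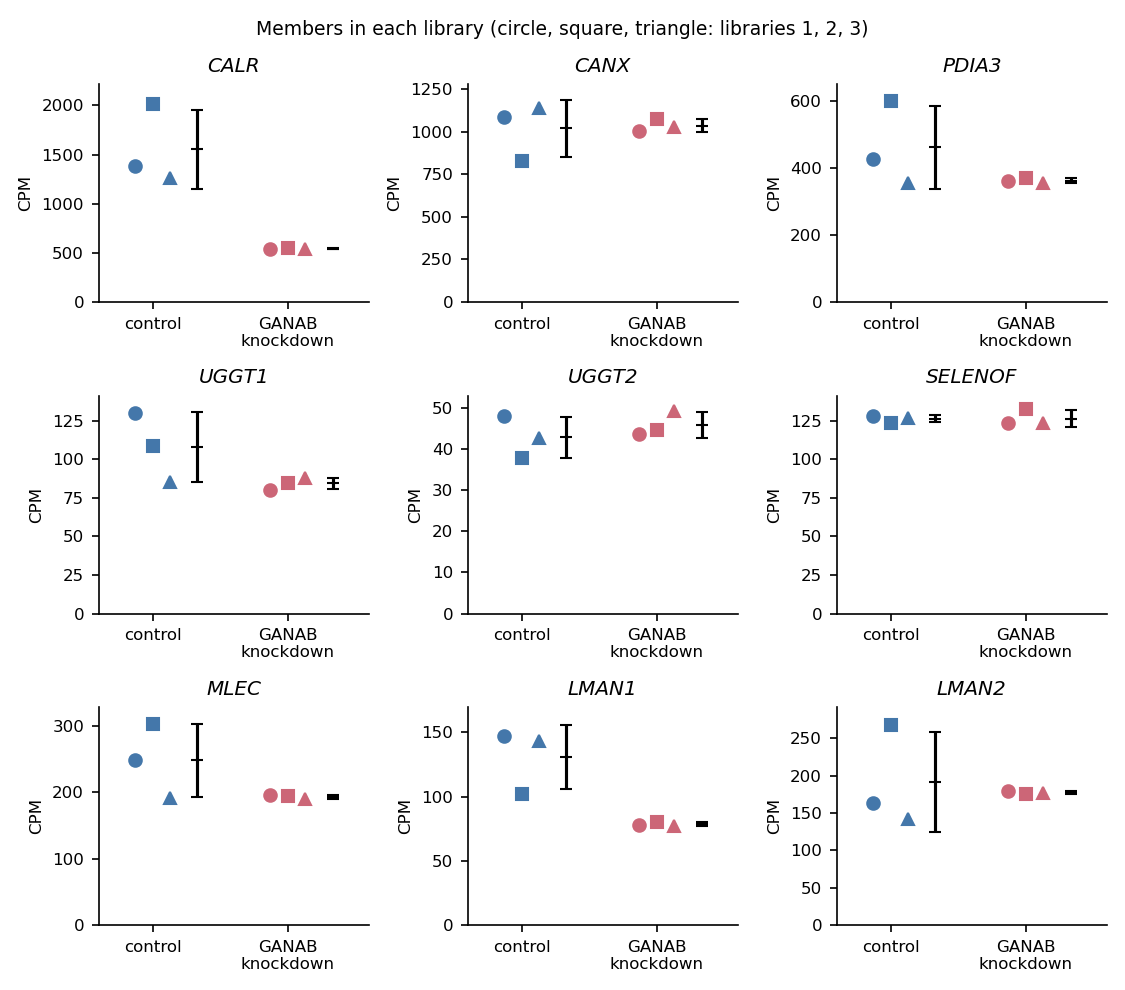
CPM (library-scaled counts, with TMM factors) of each of the 9 genes in every library; each panel is a gene with its own axis from 0, and circle, square and triangle are libraries 1, 2 and 3 of a group. CALR runs from 1262 to 2014 in the controls and from 536.4 to 549.1 in the knockdown, and the SD is larger in the controls in 8 of the 9 panels, the exception being SELENOF (2.214 against 5.273 CPM).

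CALR (19:12938578-12944489, plus strand, GRCh38) encodes calreticulin, the soluble lectin chaperone that also stores calcium in the ER and takes part in loading MHC class I molecules. Its level was 1387, 2014 and 1262 CPM in controls 1, 2 and 3, and 539.3, 549.1 and 536.4 CPM in the knockdown libraries. Every knockdown library was below every control library, by a wide margin. CALR fell 2.87-fold, from 1554 ± 403.1 to 541.6 ± 6.649 CPM (SD, n = 3 each), to 34.8% of control. The log2 fold change was -1.52 (SE 0.20, 95% confidence interval -1.99 to -1.06, edgeR adjusted p = 0.00842). It was not called without knockdown library 1, 2 or 3 (edgeR adjusted p = 0.0839, 0.0768 and 0.0852, with log2 fold changes of -1.51, -1.53 and -1.51). On TPM, which is scaled for transcript length, the difference was -1.25 with limma-trend on log2(TPM + 1) and an adjusted p of 0.0695; without the mitochondrial genes in the TPM total it was -1.35, with an adjusted p of 0.0134.

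CANX (5:179678628-179730925, plus strand) encodes calnexin, the membrane-bound homologue with the same sugar preference. It had 1090, 828.2 and 1142 CPM in the controls and 1005, 1078 and 1027 CPM in the knockdown. The groups overlapped, and the means were 1020 ± 168.3 and 1037 ± 37.19 CPM. The log2 fold change was 0.02 (SE 0.16, 95% confidence interval -0.35 to 0.40, edgeR adjusted p = 0.946), an interval that does not reach the fall seen for CALR.

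The ratio of CALR to CANX within a library does not depend on scaling between libraries. CALR gave 1.273, 2.432 and 1.104 counts for each CANX count in the controls, and 0.5364, 0.5094 and 0.5224 in the knockdown. CALR thus exceeded CANX in count in 3 of 3 controls and stood below it in 3 of 3 knockdown libraries. The ratio was 2.882-fold lower in the knockdown (-1.53 in log2, exact 2-sided permutation p = 0.10, adjusted p = 0.15 over the 6 ratios computed). With 3 libraries a group, 0.10 is the smallest p the test can give. Leaving out each library in turn gave -1.75 to -1.18.

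CLGN (4:140388455-140427968, minus strand) encodes calmegin, a calnexin homologue best known from the testis. It had 12.36, 12.04 and 14.73 CPM in the controls and 1.812, 3.158 and 1.649 CPM in the knockdown, with no overlap (15.7% of all genes, knockdown lower). CLGN fell 5.9-fold, with a log2 fold change of -2.56 (SE 0.32, edgeR adjusted p = 0.00777). It was not called without knockdown library 1 (adjusted p = 0.0712) or 3 (adjusted p = 0.0672). CALR3, the testis relative of calreticulin, was listed at 0 TPM in 5 of 6 libraries and at 0.9477 in control 2.

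PDIA3 (15:43746392-43773279, plus strand) encodes ERp57, the disulfide isomerase that calnexin and calreticulin recruit. It had 427.6, 599.3 and 356.7 CPM in the controls and 362.2, 368.9 and 354.9 CPM in the knockdown. Control 2 was highest, control 3 lay within the range of the knockdown libraries, and the groups overlapped. The means were 461.2 ± 124.8 and 362 ± 7.01 CPM, with a log2 fold change of -0.35 (95% confidence interval -0.82 to 0.12, edgeR adjusted p = 0.321).

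CALR was also lower relative to PDIA3, a ratio that shares the fall of CALR with the ratio to CANX. There were 3.244, 3.36 and 3.537 CALR counts for each PDIA3 count in the controls, and 1.489, 1.488 and 1.511 in the knockdown. Within each group the 3 libraries were close, the controls included, although each gene on its own spread widely over the controls. The ratio was 2.258-fold lower in the knockdown (-1.18 in log2, exact 2-sided permutation p = 0.10, the smallest possible). Leaving out each library in turn gave -1.20 to -1.14, the narrowest range of the 6 ratios.

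PDIA3 has a processed pseudogene, PDIA3P1 (1:147172744-147179622, plus strand), that is itself transcribed. Of the 4352 stretches of 31 bases in PDIA3 transcripts, 20.5% also occur in PDIA3P1, so the split of reads between them is an estimate. PDIA3P1 had 22.88, 9.147 and 12.35 CPM in the controls and 39.13, 39.4 and 44.27 CPM in the knockdown, with no overlap (21.9% of all genes, knockdown higher). It rose 2.75-fold, with a log2 fold change of 1.46 (SE 0.32, edgeR adjusted p = 0.036), while the parent gene did not pass. Its share of the counts of both genes was 5.08%, 1.5% and 3.35% in the controls and 9.75%, 9.65% and 11.1% in the knockdown. PDIA3P1 was not called without control 3 (adjusted p = 0.083) or with any 1 knockdown library left out (0.142 to 0.163). With the host-marker covariate described below its log2 fold change was 0.47 (edgeR adjusted p = 0.351). It overlaps FMO5 on the other strand and an antisense gene on its own. With both genes summed, the log2 fold change of PDIA3 was -0.24 (edgeR adjusted p = 0.489). The other pseudogenes, PDIA3P2 and MLECP1, were listed at 0 TPM in all libraries.

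**Figure D2:**
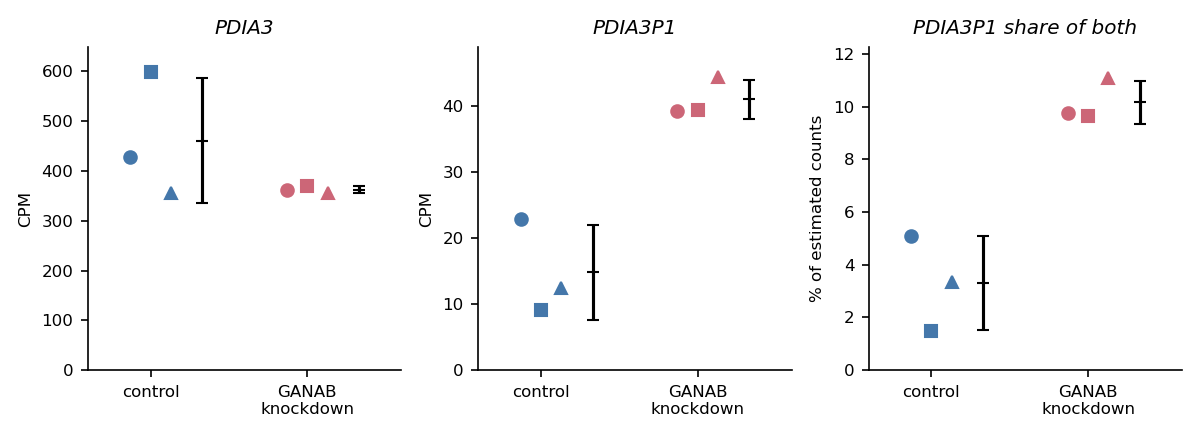
PDIA3, its pseudogene PDIA3P1 (both CPM) and the percent of their summed counts given to PDIA3P1, per library; circle, square and triangle are libraries 1, 2 and 3. The groups overlap for PDIA3, while PDIA3P1 lies at 9.147 to 22.88 CPM in the controls and at 39.13 to 44.27 CPM in the knockdown.

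UGGT1 (2:128091200-128195677, plus strand) encodes the folding sensor that adds a glucose back to misfolded glycoproteins. It had 130.2, 108.3 and 85.1 CPM in the controls and 80.3, 84.83 and 87.73 CPM in the knockdown. Controls 1 and 2 were above all knockdown libraries, and control 3 lay among them. The log2 fold change was -0.36 (95% confidence interval -0.76 to 0.05, edgeR adjusted p = 0.246).

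UGGT2 (13:95801580-96053482, minus strand), the less abundant homologue by counts, had 48.08, 37.95 and 42.72 CPM in the controls and 43.75, 44.64 and 49.43 CPM in the knockdown. The groups overlapped, with a log2 fold change of 0.10 (95% confidence interval -0.24 to 0.43, edgeR adjusted p = 0.727). Counts of UGGT1 for each count of UGGT2 were 2.708, 2.855 and 1.992 in the controls and 1.836, 1.9 and 1.775 in the knockdown, without overlap. The difference was -0.44 in log2 on counts (exact 2-sided permutation p = 0.10, adjusted 0.15) but -0.05 on TPM, where the exact p was 1.00.

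SELENOF (1:86862445-86914424, minus strand) encodes a selenoprotein that binds UGGT1 and is thought to act on disulfide bonds. It was the steadiest of the 9 genes over the controls, with 128.1, 123.9 and 127.1 CPM, and had 123.4, 132.6 and 123.6 CPM in the knockdown. The log2 fold change was 0.00 (SE 0.12, 95% confidence interval -0.27 to 0.27, edgeR adjusted p = 0.994). The ratio of UGGT1 to SELENOF counts was 1.016, 0.8748 and 0.6697 in the controls and 0.651, 0.6396 and 0.7096 in the knockdown. These overlapped (-0.34 in log2, exact 2-sided permutation p = 0.20, adjusted 0.24).

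MLEC (12:120686869-120701864, plus strand) encodes malectin, an ER lectin for glycans with 2 glucose residues, the form that glucosidase II itself acts on. It had 249.3, 303.1 and 192.1 CPM in the controls and 195.4, 194 and 189.6 CPM in the knockdown. Control 3 lay among the knockdown libraries, and the log2 fold change was -0.36 (95% confidence interval -0.78 to 0.06, edgeR adjusted p = 0.255). RPN1, the ribophorin of the oligosaccharyltransferase with which malectin associates, had 363, 421.9 and 364.6 CPM in the controls and 222, 230.1 and 226.2 CPM in the knockdown. RPN1 fell, with a log2 fold change of -0.76 (edgeR adjusted p = 0.0168); it lost its call with any 1 knockdown library left out (0.126 to 0.141).

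LMAN1 (18:59327823-59359962, minus strand) encodes ERGIC-53, the mannose-binding receptor that carries glycoproteins, coagulation factors V and VIII among them, out of the ER. It had 147.1, 102.3 and 143.3 CPM in the controls and 77.97, 80.22 and 77.41 CPM in the knockdown. Every knockdown library was below every control, and control 2 was nearest to them. LMAN1 fell 1.67-fold, from 130.9 ± 24.83 to 78.53 ± 1.485 CPM (SD, n = 3 each). The log2 fold change was -0.74 (SE 0.17, 95% confidence interval -1.12 to -0.35, edgeR adjusted p = 0.0386). This call was lost without control 1 (adjusted p = 0.0577), control 3 (0.0562) or any 1 knockdown library (0.18 to 0.201), and on log2(TPM + 1) with limma-trend (-0.54, adjusted p = 0.375). Without control 2 the log2 fold change was -0.88 (edgeR adjusted p = 0.000238).

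MCFD2, the calcium-binding partner of LMAN1 in carrying coagulation factors, had 155.7, 165.1 and 149.7 CPM in the controls and 152.1, 156 and 155.7 CPM in the knockdown. Its log2 fold change was -0.02 (edgeR adjusted p = 0.935). The ratio of LMAN1 to MCFD2 counts was 0.9447, 0.6197 and 0.9571 in the controls and 0.5127, 0.5142 and 0.4971 in the knockdown, without overlap. This was 1.623-fold lower (-0.70 in log2, exact 2-sided permutation p = 0.10, adjusted 0.15).

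LMAN2 (5:177331562-177351852, minus strand) encodes VIP36, a related lectin that cycles between the ER and the Golgi. It had 163.6, 267.8 and 142.6 CPM in the controls and 180, 176 and 176.3 CPM in the knockdown. The knockdown values lay inside the control range, with a log2 fold change of -0.11 (SE 0.23, 95% confidence interval -0.66 to 0.44, edgeR adjusted p = 0.821). Without control 2 it was 0.22. The ratio of LMAN1 to LMAN2 was 0.8992, 0.382 and 1.005 in the controls and 0.4332, 0.4559 and 0.4391 in the knockdown. Control 2 lay below the knockdown libraries and the other 2 controls above them (-0.66 in log2, exact 2-sided permutation p = 0.40). Without control 2 the difference was -1.10.

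**Figure D3:**
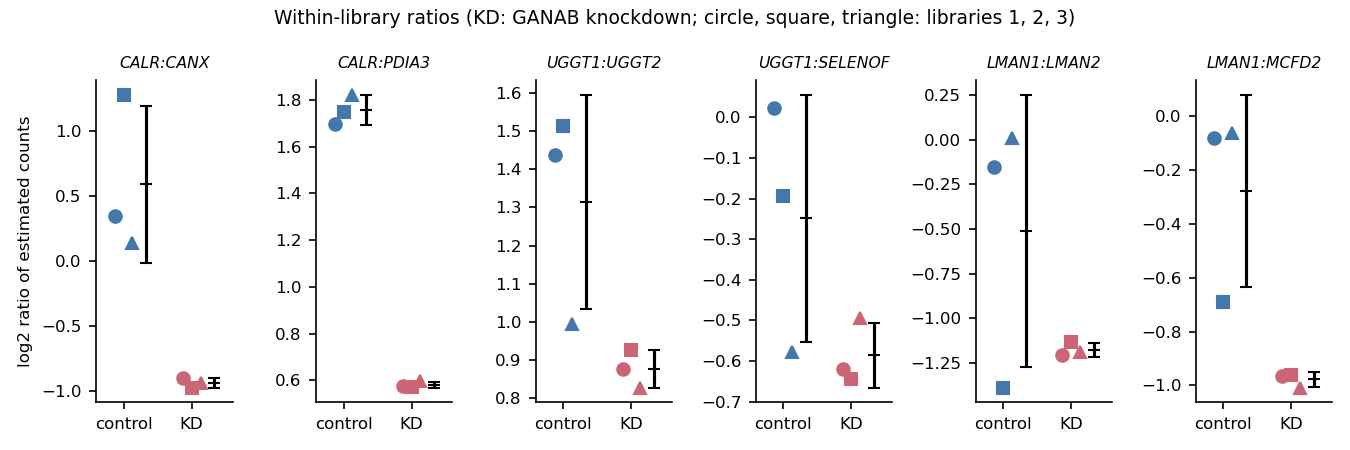
Log2 of the ratio of estimated counts of 2 genes within a library, for the 6 ratios; circle, square and triangle are libraries 1, 2 and 3, and KD is GANAB knockdown. The CALR:PDIA3 ratio is tight in both groups (3.244 to 3.537 in the controls, 1.488 to 1.511 in the knockdown), while control 2 stands below the knockdown libraries for LMAN1:LMAN2.

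Control 2 departed from the other controls in a different direction for different genes of the group. Against the mean CPM of controls 1 and 3 it was 1.75 times as high for LMAN2, 1.53 for PDIA3, 1.52 for CALR and 1.37 for MLEC. It was the lowest control for LMAN1 (0.705), CANX (0.742), UGGT2 (0.836) and SELENOF (0.971), and in the middle for UGGT1 (1.01). In the same library some stress-response genes, named after their values were seen, were much lower than in the other controls. HSPA5 had 5079, 759.3 and 4595 CPM in controls 1, 2 and 3 and 2584 to 2702 CPM in the knockdown. HERPUD1, an ER membrane protein of protein disposal, had 259.8, 36.85 and 302.8 CPM in the controls, and DNAJB9, a co-chaperone of HSPA5, had 77.88, 13.98 and 78.11 CPM. The rest of the unfolded protein response list described below was mixed. HSP90B1, PDIA4, DNAJB11, DNAJC3, MANF, XBP1 and ATF6 were also lowest in control 2, DNAJC3 by little (73.39, 70.44 and 74.98 CPM). HYOU1 was in the middle, and CRELD2 (30.5, 43.95 and 30.45 CPM) and SDF2L1 (24.39, 26.6 and 21.89 CPM) were highest there. Among the controls CALR was thus highest and HSPA5 lowest in control 2. Both carry the exact element printed above, and its part in these levels was not tested.

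Levels of different genes were compared per length, in TPM. In the controls the order by mean was CALR (1054 ± 380.9), CANX (458.2 ± 143.7), PDIA3 (337.4 ± 111), LMAN2 (201.2 ± 96.67), SELENOF (126.7 ± 25.36), MLEC (53.58 ± 22.13), LMAN1 (36.57 ± 14.84), UGGT2 (18.62 ± 6.611) and UGGT1 (13.3 ± 1.078). The ranges of these neighbours overlapped for CANX and PDIA3, PDIA3 and LMAN2, LMAN2 and SELENOF, MLEC and LMAN1, and UGGT2 and UGGT1. In the knockdown CANX came first (529.5 ± 16.69 TPM) and CALR second (424.2 ± 11.12 TPM), and the other 7 kept their places. There no neighbours in the order overlapped. CALR was above CANX in 3 of 3 controls and CANX above CALR in 3 of 3 knockdown libraries, on TPM as on counts. UGGT1 had more counts than UGGT2 in every library but a lower mean TPM in both groups.

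Genes with the pattern most like CALR over the 6 libraries, among 9565 protein-coding genes with a mean of at least 10 CPM, were RFLNB (Pearson r = 0.9991 on log2 CPM), SQOR (0.9987) and SEMA6B (0.9984). Their log2 fold changes were -2.02, -1.34 and -1.16. For LMAN1 they were AP2B1 (0.9982), MMP14 (0.9979) and RABGEF1 (0.9973), with log2 fold changes of -0.20, -1.11 and -0.39. These correlations were chosen as the highest of many and share the split into groups, so they describe the 6 libraries only.

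The other genes of the pathway were read from lists, against a background of 3.72% lower and 4.59% higher over all genes tested. Of 4 glucose-trimming genes 2 fell, GANAB and PRKCSH, the beta subunit of glucosidase II, which had 360.8, 468 and 367.3 CPM in the controls and 231.9, 218.8 and 232.6 CPM in the knockdown (log2 fold change -0.81, edgeR adjusted p = 0.0218). GANAB was the targeted gene, and PRKCSH lost its call with any 1 knockdown library left out (edgeR adjusted p of 0.145 to 0.149). Of 8 tested partners and relatives of the lectins 2 fell, CLGN and RPN1, with a list median of -0.53. Of 7 other cargo receptors 0 passed in edgeR and 0 in DESeq2, and 1 had an unadjusted p under 0.05, ERGIC2 of the early transport compartment (-0.62, edgeR adjusted p = 0.112). Without control 2 this list had 1 gene lower, ERGIC2 (-0.37, edgeR adjusted p = 0.0394), and 1 higher, against 13.8% and 13.9% of all genes. ERGIC2 was also called without control 3 (adjusted p = 0.0428) and with weighted limma-voom (0.0317). Of the 3 KDEL receptors, which return escaped ER chaperones such as calreticulin, 0 passed in edgeR or DESeq2 and 0 had an unadjusted p under 0.05. Their log2 fold changes were 0.09 for KDELR1, -0.11 for KDELR2 and -0.28 for KDELR3.

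Of 10 tested genes for mannose trimming and disposal of misfolded glycoproteins 0 passed in edgeR or DESeq2, and 2 had an unadjusted p under 0.05. DERL1, a channel component, was nearest (0.44, edgeR adjusted p = 0.0983). Without control 2 the list had 2 genes lower and 3 higher, DERL1 among the latter (edgeR adjusted p = 0.00194), and with weighted limma-voom 1 lower and 3 higher. The shares of all genes were 13.8% lower and 13.9% higher without control 2, and 10.4% and 8.76% with weighted limma-voom. Of 5 tested cargo genes of LMAN1 0 passed in edgeR and 1 in DESeq2, with 2 at an unadjusted p under 0.05. SERPINA1, alpha-1 antitrypsin, was nearest (-1.82, edgeR adjusted p = 0.0813) with 5.334, 14.72 and 3.539 CPM in the controls and 1.961 to 2.705 CPM in the knockdown. Its log2 fold change was -0.99 without control 2 (edgeR adjusted p = 0.0717), -2.21 without control 3 (0.0412) and -0.73 with the host-marker covariate described below (0.668). In this list 1 gene was lower and 1 higher without control 2 and with weighted limma-voom, and 1 lower without control 3 (4.28% of all genes lower). In the unfolded protein response list 5 of 13 genes were lower and 0 were higher, against 3.72% and 4.59% of all genes. The median of this list was -0.51. The 3 with the smallest p were PDIA4, a disulfide isomerase (-0.78, edgeR adjusted p = 0.0142), HYOU1, an Hsp70-like chaperone (-0.63, 0.0223), and HSP90B1, the ER form of Hsp90 (-0.73, 0.0246). HSP90B1 went from 1531, 1241 and 1473 to 833.8, 872.1 and 858.9 CPM.

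Genes of MHC class I peptide loading, the process in which CALR and PDIA3 also act, went the other way. Of these 10 genes 5 rose and 0 fell, against 4.59% and 3.72% of all genes, with a list median of 0.47. HLA-B had 446, 561.6 and 653.2 CPM in the controls and 1021, 1026 and 1039 in the knockdown (log2 fold change 0.89, edgeR adjusted p = 0.0231). B2M, the light chain, had 537.4, 788.1 and 604.5 CPM and then 1158, 1174 and 1167 (0.86, adjusted p = 0.0272), and HLA-C rose as well (0.68, edgeR adjusted p = 0.0429). TAPBP, the tapasin that bridges PDIA3 and the class I heavy chain, did not pass (0.21, edgeR adjusted p = 0.315). HLA genes share near-identical sequence, so counts split between them are estimates. With DESeq2 size factors in edgeR 2 of the 10 rose and 0 fell, against 4.37% and 3.93% of all genes. With any 1 knockdown library left out 0 peptide-loading and 0 unfolded protein response genes passed. At an unadjusted p under 0.05 there were 5 of 10 and 5 to 6 of 13, without a share over all genes to set them against. The peptide-loading genes that rose numbered 2 without control 1 and 2 without control 3, where 4.63% and 4.39% of all genes were higher. In the unfolded protein response list 12 of 13 genes fell without control 2, where 13.8% of all genes were lower. Without control 1 the number was 3, where 3.26% of all genes were lower.

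**Figure D4:**
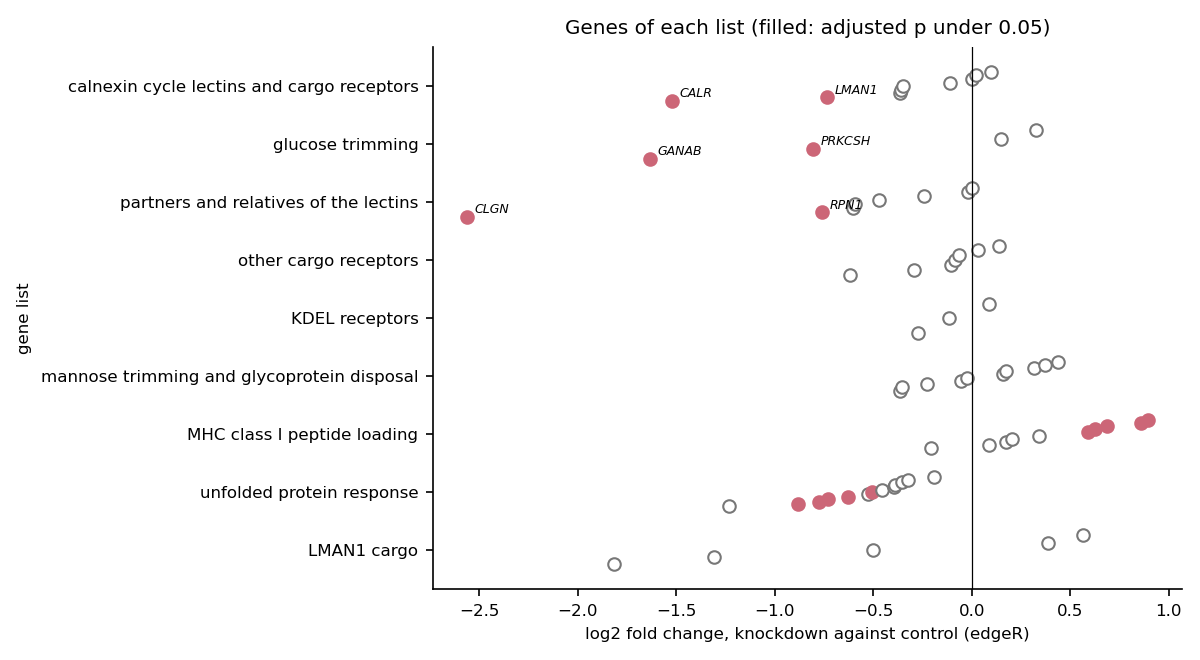
Log2 fold change, knockdown against control (edgeR), of every tested gene of each list; filled points have an adjusted p under 0.05, and rows are lists. The filled points of the lectin group are CALR (-1.52) and LMAN1 (-0.74), all filled points of the unfolded protein response lie left of 0, and all those of peptide loading lie right of it.

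Markers of host or stromal cells moved with the groups. Of 22 tested markers of fibroblasts, smooth muscle, endothelium, leukocytes, fat and nerve 5 rose and 0 fell, against 4.59% and 3.72% of all genes. The summed CPM of these markers was 347 to 625 in the controls and 792 to 829 in the knockdown. Smooth muscle markers summed to 117 to 308 CPM and to 569 to 605 CPM, with 4 of 6 higher. Of 5 tested macrophage and leukocyte markers 0 passed in edgeR (1 at an unadjusted p under 0.05) and 1 was lower in DESeq2; 3 had a positive and 2 a negative log2 fold change, and the median was 0.45. Their sum, 70.9 to 258 CPM in the controls and 57 to 57.6 CPM in the knockdown, was mostly CD68 (95.97, 255 and 66.83 CPM in the controls and 51.57 to 52.29 CPM in the knockdown). Fibroblast markers summed to 19.1 to 209 and to 158 to 159 CPM, endothelial markers to 1.89 to 3.35 and to 5.11 to 6.55 CPM. LUM of the fibroblast list and C1QB of the macrophage list were listed at 0 in all libraries. With the mean log2 level of these markers as a covariate, CALR was at -1.18 (edgeR adjusted p = 0.15) and LMAN1 at -1.06 (0.126), and 0 of the 9 genes passed, with 3 at an unadjusted p under 0.05; over all genes 33 passed (0.17%). GANAB, the targeted gene, was itself at -1.47 with an edgeR adjusted p of 0.0633 in that fit. The marker level was higher in every knockdown library than in every control (3.12 to 3.23 against 1.72 to 2.88), so it cannot be told apart from the knockdown in this design. Mouse reads that match human transcripts were not separated here, and their part in the results was not tested.

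**Figure D5:**
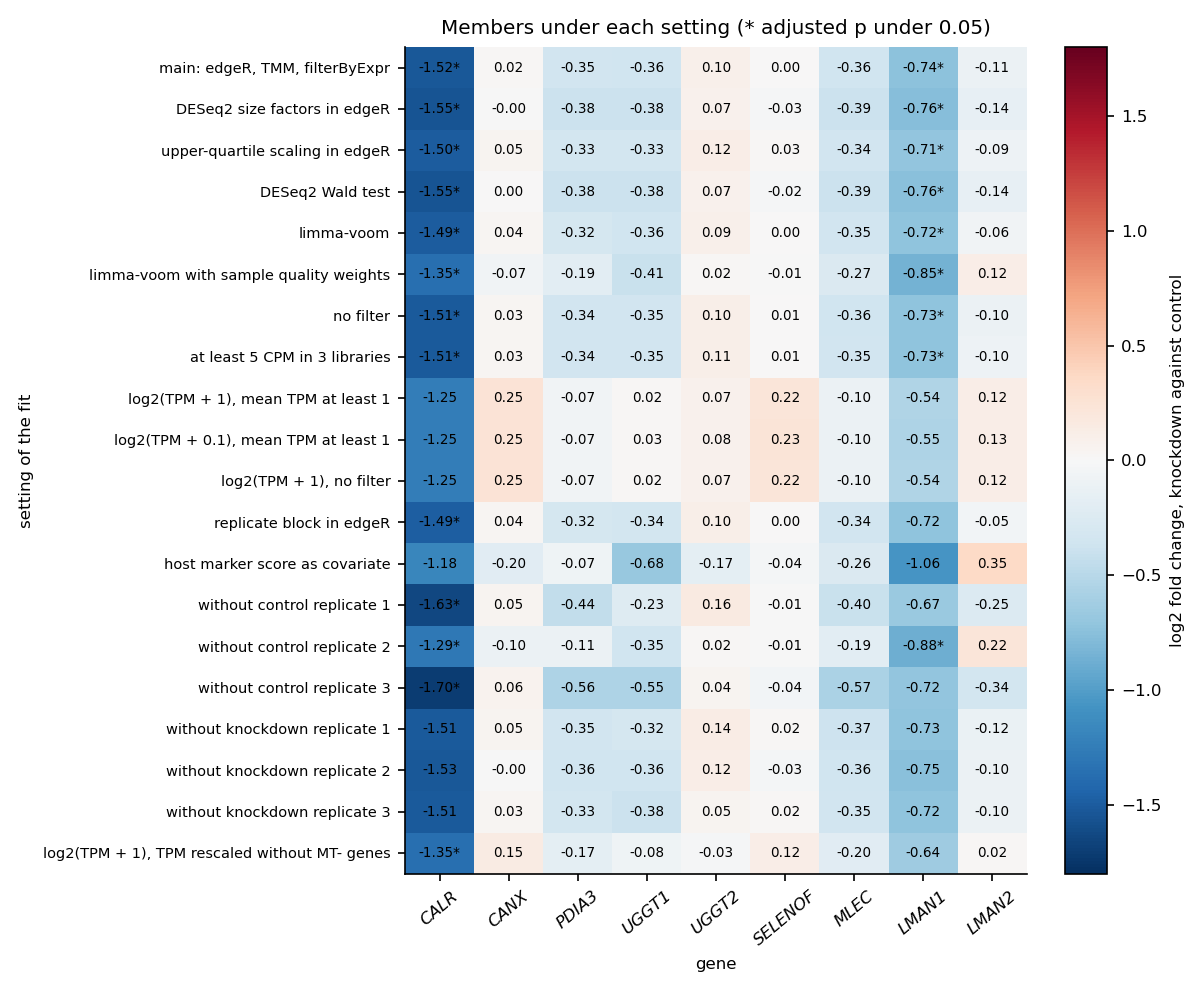
Log2 fold change of each of the 9 genes (columns) under each setting of the fit (rows), on a colour scale; asterisks mark an adjusted p under 0.05. CALR is negative in every row, from -1.70 to -1.18, and LMAN1 is negative in every row, while CANX runs from -0.20 to 0.25 and asterisks appear in no column other than those of CALR and LMAN1.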

How the data were processed

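The authors deposited, per the file headers, estimated counts per gene (whole numbers, not normalized) and TPM values (scaled for length and library total). The tools fastp, Salmon and DESeq2 and the build GRCh38 are named per the submitters' processing notes. How each was run, the annotation, the strand setting and any removal of mouse reads were not given in the sources used here. Per the labels' protocols, RNA was extracted with TRIzol. Knockdown columns, headed with an abbreviation for knockout, were assigned to libraries through group name and number. The table lists 21503 genes.

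The members and lists were chosen with earlier results of these data known. The main test was edgeR 4.0.16 (R 4.3.3): quasi-likelihood, TMM, filterByExpr (2073 genes removed), 2-sided, Benjamini-Hochberg adjustment over 19430 genes, threshold 0.05. It was run on simulated data that gave both groups the same spread, so the unequal spread of these groups was not covered. CPM used TMM library sizes; 1 count was 0.0236 to 0.0823 CPM. Ratios used exact permutation over libraries. Named genes were the members, GANAB, PRKCSH, KDELR1 to KDELR3, MCFD2, TAPBP, up to 3 passing genes of each list by p (or the nearest 1), the 3 most similar genes of each passing member, and pseudogenes named after members. Libraries of a group differed beyond sampling noise (chi-square per degree of freedom 6.07 to 484). Positions are from GENCODE on GRCh38.

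Alternatives were DESeq2 size factors, upper-quartile scaling, DESeq2 1.42.0, limma-voom (limma 3.58.1) with and without quality weights, other filters, limma-trend on log2 TPM (1 or 0.1 added, mean TPM of at least 1; with 1 added also unfiltered), a replicate block, a host-marker covariate and leaving out each library. TPM without mitochondrial genes, and PDIA3 summed with PDIA3P1, were added after seeing the data.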

Additional observations from a re-analysis of the deposited data

How the results depend on the processing

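Of the 9 genes, 2 were called with both other scalings, DESeq2, limma-voom with and without weights, both count filters, and PDIA3 summed with its pseudogene. Over all genes tested, 8.31% were called with DESeq2 size factors, 8.19% with upper-quartile scaling and 17.5% with DESeq2. The share was 12.1% with limma-voom and 19.1% with weights. It was 6.98% without a filter, 15.3% with at least 5 CPM in 3 libraries, and 8.3% with PDIA3 summed. On TPM 0 of the 9 were called in all 3 settings (1 each at an unadjusted p under 0.05). With the host-marker covariate 0 of the 9 were called, and on TPM without mitochondrial genes 1, CALR (7.88% over all genes). Leaving out each library gave 0 to 2; 1 was called without control 1 or control 3. Over all genes the 1614 calls became 3676 with DESeq2, 3716 with weighted limma-voom, 828, 526 and 46 on TPM, 33 with the covariate, and 62 to 5604 with a library left out. The 14 calls in the other pathway lists became 27 with weighted limma-voom, 2, 1 and 0 on TPM, 0 with the covariate, and 1 to 34 with a library left out. With DESeq2 size factors these list calls were 9 lower and 2 higher, against 9 and 5. Leaving out a library leaves fewer samples, whichever group it is from. Over all genes 1601, 5604 and 1760 were called without control 1, 2 or 3. Without knockdown library 1, 2 or 3 the calls were 62, 115 and 88. The causes were not tested.

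With the replicate block 566 genes, 1 of the 9 (CALR, -1.49, edgeR adjusted p = 0.0238; LMAN1 -0.72, 0.104) and 2 of the list genes were called. Same-numbered libraries did not deviate together (r = -0.04, -0.11 and -0.02 over 10051 genes), so the numbers were not taken to pair the samples.

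Reversed signs occurred only for genes that were not called. CANX was -0.001 with DESeq2 size factors, -0.066 with weighted limma-voom, -0.204 with the covariate and -0.102 to 0.063 with a library left out. SELENOF was -0.025, -0.023 and -0.013 with DESeq2 size factors, DESeq2 and weighted limma-voom, -0.036 with the covariate and -0.045 to 0.024 with a library left out. LMAN2 was 0.123 with weighted limma-voom, 0.125, 0.126 and 0.125 on TPM, 0.355 with the covariate, 0.021 without mitochondrial genes and -0.336 to 0.216 with a library left out (the highest without control 2). UGGT1 was 0.024, 0.025 and 0.024 on TPM, and UGGT2 was -0.173 with the covariate and -0.027 without mitochondrial genes. MCFD2 was 0.003 with upper-quartile scaling, 0.002 with weighted limma-voom, 0.152, 0.156 and 0.152 on TPM, 0.017 with the covariate, 0.051 without mitochondrial genes and -0.105 to 0.022 with a library left out. KDELR2 was 0.167, 0.171 and 0.167 on TPM, 0.029 with the covariate and 0.066 without mitochondrial genes, and KDELR1 was -0.047 (without control 1) to 0.254 (without control 2) with a library left out, and -0.015 without control 3. The median of all genes was 0.233 on log2(TPM + 1) and 0.033 in the main test, so TPM differences sit on a higher base. No ratio changed sign under any alternative run. Depth, with 11737837 counts in the smallest library, limits low genes such as CLGN more than the 9 genes.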
